A study of Mus musculus with 12 samples.

Results

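Oxidative phosphorylation (OXPHOS) was followed here through the genes of both genomes that encode it, in nuclei from mouse lungs. Members were taken by gene symbol: mt-Nd, mt-Co, mt-Atp and mt-Cytb genes for the mitochondrial genome, and Nduf, Uqcr, Cox4 to Cox8, Atp5 and Sdha to Sdhd genes for the nuclear genome, with pseudogene symbols ending in -ps left out. The rule found 106 members among the 31053 genes listed, 13 mt-encoded and 93 nuclear-encoded. The mt-encoded set held 7 subunits of complex I, 1 of complex III, 3 of complex IV and 2 of complex V. The nuclear set held 36 complex I subunits, 8 complex I assembly factors, 4 complex II subunits, 8 complex III, 20 complex IV and 17 complex V members. Atp5o was listed under a pair of gene identifiers whose models overlap, and how its reads were split between them is uncertain.

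Single nucleus RNA sequencing was done on 12 lungs, 3 mice in each of 4 groups, all C57BL/6J and 7 weeks old at instillation. PBS_Vehicle mice received PBS into the trachea and then vehicle. PBS_NVP-BHG712 mice received PBS and then NVP-BHG712, an inhibitor of the receptor tyrosine kinase EphB4. Bleo_Vehicle mice were given bleomycin, used in mice to injure the lung and set off scarring, and then vehicle, and Bleo_NVP-BHG712 mice received bleomycin and then the inhibitor. Treatment began 5 days after instillation and lasted 5 days, and lungs were taken at day 14. Frozen tissue was homogenised and nuclei were sorted by DAPI, so every library was of nuclei and not of whole cells.

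OXPHOS is the route by which mitochondria make most of the ATP of an aerobic cell. Complexes I and II pass electrons from NADH and succinate to ubiquinone, complex III passes them to cytochrome c, complex IV passes them to oxygen, and complex V (ATP synthase) uses the proton gradient that results. A small core of subunits is encoded by mitochondrial DNA and transcribed inside the organelle, whereas all other subunits, and all of complex II, are transcribed in the nucleus and imported as protein. Nuclear libraries therefore read nuclear-encoded members largely as nascent or newly made RNA. They would read mt-encoded members as RNA carried along from outside the nucleus, but the origin of that RNA was not tested here.

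The mt-encoded genes are shown by the last bases of their gene models, because the library kit captures RNA at its 3′ end. Where the captured RNA itself ended was not tested. In 3 of the 13 gene models (GENCODE, GRCm38) the last codon is incomplete, and the poly(A) tail is known to complete the stop codon of such transcripts; the other 10 end on a whole codon. The windows below are 30 bases long, in the sense of the RNA, with the stop codon or its encoded remnant in capitals. They lie at chrM:9361-9390, plus strand, for mt-Co3, at chrM:11515-11544, plus strand, for mt-Nd4, at chrM:15259-15288, plus strand, for mt-Cytb, at chrM:6843-6872, plus strand, for mt-Co1 and at chrM:13552-13581, minus strand, for mt-Nd6, the only member on that strand of the mitochondrial genome.
mt-Co3: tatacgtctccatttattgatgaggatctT
mt-Nd4: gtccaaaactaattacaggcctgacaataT
mt-Cytb: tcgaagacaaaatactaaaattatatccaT
mt-Co1: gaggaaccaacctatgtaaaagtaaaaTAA
mt-Nd6: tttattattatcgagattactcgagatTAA

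Among nuclear-encoded members, Cox8a, Uqcr11, Atp5e and Cox4i1 were called in both whole-library comparisons with Bleo_Vehicle. The promoters of Uqcr11, in complex III, and Cox8a, in complex IV, are shown as examples of these. Each is 300 bases (250 before to 50 after the start), from RefSeq on GRCm38.p6, minus strand, at chr10:80406772-80407071 for Uqcr11 and chr19:7217567-7217866 for Cox8a. Capitals mark matches, on either strand, to the ETS motif CCGGAAG and to the NRF1 motif GCGCATGCG. Atp5e, not shown, had the ETS but not the NRF1 motif, and no promoter was at hand for Cox4i1. Among other called members with a promoter, Sdhb had the ETS motif, Atp5k had both, and Cox5b and Atp5j2 had neither.
Uqcr11: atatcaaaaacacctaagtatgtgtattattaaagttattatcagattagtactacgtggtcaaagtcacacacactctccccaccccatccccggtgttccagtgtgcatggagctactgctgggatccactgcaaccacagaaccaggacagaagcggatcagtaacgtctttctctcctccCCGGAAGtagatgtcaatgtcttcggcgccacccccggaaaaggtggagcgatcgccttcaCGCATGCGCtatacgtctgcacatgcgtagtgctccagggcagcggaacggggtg
Cox8a: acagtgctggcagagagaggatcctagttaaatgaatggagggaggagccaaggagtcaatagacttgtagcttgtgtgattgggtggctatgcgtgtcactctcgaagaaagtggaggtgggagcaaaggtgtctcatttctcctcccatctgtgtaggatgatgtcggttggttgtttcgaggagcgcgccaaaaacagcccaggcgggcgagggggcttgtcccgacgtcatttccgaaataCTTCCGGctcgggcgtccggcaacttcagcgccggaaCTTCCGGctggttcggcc

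A promoter was at hand for 75 of the 93 nuclear-encoded members, which are 74 symbols since Atp5o counts once. Both strands were searched. The NRF1 motif was present in 13.5% of the 74, against 1.95% of all 27025 promoters, and its core GCATGCG, which the longer motif contains, in 17.6% against 4.01%. The ETS motif was present in 24.3% against 9.93%, and the YY1 motif AAGATGGCG in 10.8% against 1.64%. SP1 (GGGCGG) and CCAAT motifs were about as frequent in members (44.6% each) as in all promoters (38.2% and 41.1%), and TATAAA was found in 9.46% against 15.7%. Nrf1, Yy1 and the ETS protein GABP are known activators of respiratory chain genes, and these letter matches say nothing of whether they were bound here.

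The files held 49163 barcodes and 184940649 unique molecular identifiers (UMIs, each standing for 1 captured RNA molecule), with 3556084 to 61947690 UMIs and 1183 to 13583 barcodes in a library. The median barcode had 925 to 5408 UMIs, no pair of libraries shared more than 34 barcodes, and no pair agreed within sampling noise. The 3 Bleo_Vehicle libraries stood apart from the other 9: they alone carry batch numbers 6 and 7 in their labels, where the others carry run numbers 1 to 4, and 1.98% to 27.2% of their kept nuclei had over 5% mitochondrial UMIs, against 0.0374% to 0.686% elsewhere. The group and the batch therefore cannot be told apart in any result that involves Bleo_Vehicle. All 3 Bleo_NVP-BHG712 libraries were in run 4, and no PBS library was. In Bleo_NVP-BHG712 against PBS_NVP-BHG712 the group and the run cannot be told apart either. Comparisons that share the Bleo_Vehicle or the PBS libraries are not independent of each other.

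The mitochondrial genome stood out in Bleo_Vehicle and the nuclear genome did not. As a percentage of all UMIs of a library, mt-encoded members came to 0.0504, 0.0979 and 0.105 in the PBS_Vehicle libraries and to 2.72, 1.37 and 0.635 in the Bleo_Vehicle libraries. PBS_NVP-BHG712 libraries were at 0.0639, 0.136 and 0.0949, and Bleo_NVP-BHG712 libraries at 0.103, 0.0858 and 0.0618. All 3 Bleo_Vehicle libraries lay above all 9 others, while the other 3 groups overlapped. Nuclear-encoded members came to 0.121% ± 0.0117 (SD, n = 3) in PBS_Vehicle, 0.121% ± 0.0128 in PBS_NVP-BHG712, 0.122% ± 0.0133 in Bleo_Vehicle and 0.111% ± 0.00224 in Bleo_NVP-BHG712, and the first 3 groups overlapped. Bleo_NVP-BHG712 libraries, at 0.113% or less, lay just under all PBS_Vehicle and Bleo_Vehicle libraries. The ratio of mt-encoded to nuclear-encoded UMIs was 0.376 to 1.21 in the 9 other libraries and 23.8, 12.0 and 4.62 in Bleo_Vehicle. Of the 839408 mt-encoded UMIs in the series, 90.88% came from those 3 libraries.

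**Figure D1:**
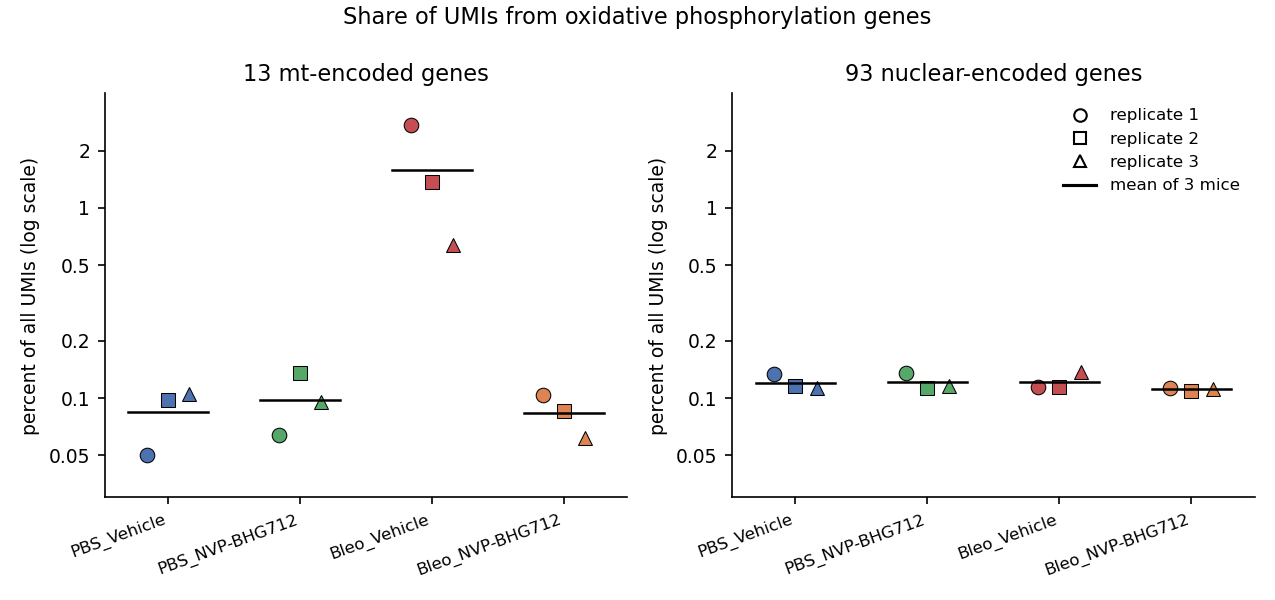
Percent of all UMIs from the 13 mt-encoded and the 93 nuclear-encoded OXPHOS members in each of the 12 libraries, on a log axis, by group, each point 1 mouse and each line a group mean. The 3 Bleo_Vehicle libraries sit at 0.635% to 2.72% for mt-encoded members, above all others, while nuclear-encoded members stay between 0.109% and 0.138% in every library.

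By complex, the mean mt-encoded share in Bleo_Vehicle was 16.6 times that in PBS_Vehicle for complex I, 20.1 times for complex III, 19.5 times for complex IV and 18.3 times for complex V. These ratios rested in part on Bleo_Vehicle replicate 1: without it they were 10.9, 13.5, 12.4 and 11.0. The nuclear-encoded share was 0.973 times for complex I subunits, 0.806 times for complex I assembly factors, 0.877 times for complex II, 1.02 times for complex III, 1.41 times for complex IV and 1.07 times for complex V. Complex IV was the group of nuclear-encoded members with the highest ratio, at 0.0181% ± 0.00193 of UMIs in Bleo_Vehicle, 0.0129% ± 0.00289 in PBS_Vehicle and 0.0114% ± 0.000597 in Bleo_NVP-BHG712 (SD, n = 3). No test is given for these sums, since the members were chosen with results of these data known.

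Gene by gene, all 13 mt-encoded members rose in Bleo_Vehicle against PBS_Vehicle in whole libraries (edgeR quasi-likelihood test, Benjamini-Hochberg adjusted over 14481 genes, threshold 0.05), with a median log2 change of 4.28 beside 0.01 over all genes tested. In that comparison 2.22% of genes were called higher. mt-Co1, the catalytic core of complex IV and the member with the most UMIs, was at 90.4, 177 and 169 CPM (counts per 1000000 UMIs) in PBS_Vehicle, 110, 245 and 161 in PBS_NVP-BHG712, 5705, 2579 and 1195 in Bleo_Vehicle, and 179, 169 and 101 in Bleo_NVP-BHG712. Every Bleo_Vehicle library was above every other library, by a log2 change from PBS_Vehicle of 4.45 (SE 0.555). mt-Cytb, the mt-encoded subunit of complex III, was at 41.4, 101 and 121 CPM in PBS_Vehicle, 54.3, 138 and 98.6 in PBS_NVP-BHG712, 3166, 1661 and 721 in Bleo_Vehicle, and 114, 93.1 and 76.9 in Bleo_NVP-BHG712. Its groups were again separated, with a log2 change of 4.41 (SE 0.575).

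mt-Atp6, a subunit of the proton channel of complex V, was at 67.8, 157 and 203 CPM in PBS_Vehicle and at 5108, 2234 and 950 in Bleo_Vehicle, a log2 change of 4.28 with SE 0.624 (edgeR adjusted p = 0.00682). mt-Nd4, a proton-pumping subunit of complex I, went from 34.9, 79.6 and 74.3 CPM to 1680, 905 and 425, a log2 change of 4.00 (SE 0.523). In both, the PBS_Vehicle and Bleo_Vehicle libraries did not overlap. mt-Nd6, the complex I subunit on the opposite strand, had the fewest UMIs. It was at 0.485, 1.10 and 0.207 CPM in PBS_Vehicle and at 53.6, 22.8 and 6.82 CPM in Bleo_Vehicle, and no UMI of it was found in 1 Bleo_NVP-BHG712 library. Its log2 change of 5.50 (SE 0.871, edgeR adjusted p = 0.0101) was the largest of the 13, on a base of 1130 UMIs in the series. mt-Nd6 passed the filter on low counts through its Bleo_Vehicle libraries, so its place among the 13 that rose is no separate support. The smallest was 3.90 for mt-Nd3, in complex I. The others in complex I were 4.39 for mt-Nd1, 4.04 for mt-Nd2, 4.28 for mt-Nd4l and 4.39 for mt-Nd5. In complex IV mt-Co2 was at 4.40 and mt-Co3 at 4.26, and in complex V mt-Atp8 was at 4.09. mt-Nd4 overlaps mt-Nd4l, and mt-Atp6 overlaps mt-Atp8 and mt-Co3, on the same strand, so reads in the overlaps could be assigned to either.

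Without PBS_Vehicle replicate 2, 9 of the 13 were still called: mt-Nd1 (4.53), mt-Atp6 (4.36), mt-Nd6 (5.98) and mt-Atp8 (4.54) kept their log2 change but not the call. Without PBS_Vehicle replicate 3, mt-Nd6 (5.28) and mt-Atp8 (3.92) lost it, and no other single library changed a call. With barcodes over 5% mitochondrial UMIs left out, the median log2 change was 4.25 and all 13 were called.

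The make-up of the mt-encoded UMIs moved far less than their number. mt-Co3 made up 18.03% ± 0.324 of mt-encoded UMIs in PBS_Vehicle and 18.1% ± 1.08 in Bleo_Vehicle, mt-Co1 17.8% ± 2.12 and 19.0% ± 0.598, and mt-Atp6 16.5% ± 2.06 and 16.2% ± 1.04 (SD, n = 3). mt-Nd4 took 7.51% ± 0.587 in PBS_Vehicle and 6.32% ± 0.588 in Bleo_Vehicle, with the highest Bleo_Vehicle library (6.86%) just under the lowest PBS_Vehicle library (6.87%). Per kilobase of transcript, the level in Bleo_Vehicle was 4059 CPM for mt-Atp6, 3726 for mt-Co3 and 3352 for mt-Co2, down to 177 for mt-Nd5 and 53.4 for mt-Nd6.

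**Figure D2:**
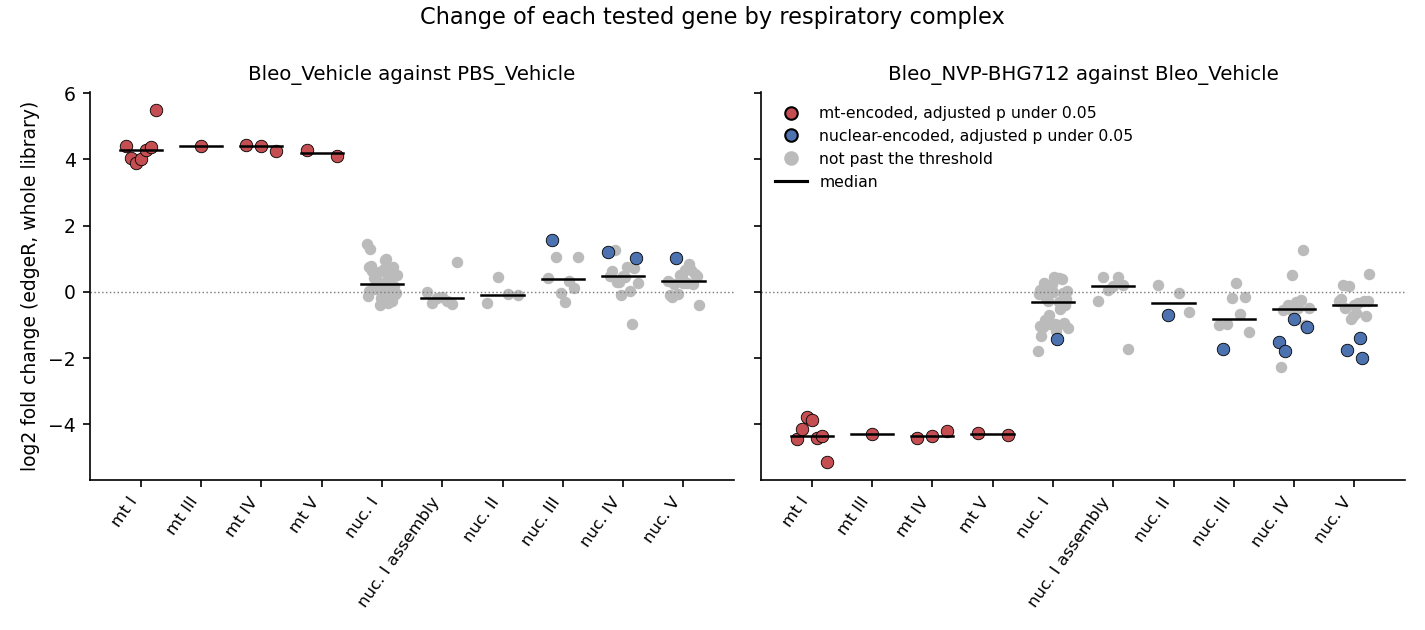
Log2 change of each tested member in Bleo_Vehicle against PBS_Vehicle and in Bleo_NVP-BHG712 against Bleo_Vehicle, by complex and genome, each point 1 gene, coloured where called, with a black line at each median. The mt-encoded members lie at 3.90 to 5.50 in the first comparison and at -5.15 to -3.76 in the second, and the nuclear-encoded members lie around 0 with medians of 0.30 and -0.40.

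Of the 93 nuclear-encoded members, 87 had enough counts to be tested. The untested 6 were Ndufaf3, Cox6a2, Cox7a1, Cox8b, Cox8c and Ndufa4l2, with 188 UMIs or fewer each. In Bleo_Vehicle against PBS_Vehicle, 4 of the 87 rose and none fell (edgeR), beside 2.22% of all genes called higher, and 23 had an unadjusted p under 0.05. The median log2 change was 0.30, with 60 of 87 above 0. In 30 of the 87 the 3 libraries of each group did not overlap, beside 20.8% of all genes. Complex IV (median 0.46, 13 of 15 above 0), complex III (0.38, 6 of 8), complex V (0.32, 13 of 17) and complex I subunits (0.23, 26 of 36) lay above 0. Complex II (-0.08, 1 of 4) and complex I assembly factors (-0.17, 1 of 7) did not.

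The 4 that rose belong to complexes III, IV and V, and apart from Cox8a they were named after their values were seen. Cox8a, a subunit of complex IV, was at 10.3, 6.03 and 9.94 CPM in PBS_Vehicle and 20.3, 16.4 and 17.3 in Bleo_Vehicle, with a log2 change of 1.02 with SE 0.216 (edgeR adjusted p = 0.0314). Uqcr11, a small accessory subunit of complex III, was at 2.61, 2.33 and 2.07 CPM against 5.62, 6.54 and 8.52, with a log2 change of 1.55 (SE 0.338, adjusted p = 0.0355). The groups did not overlap in either gene. Atp5e, the epsilon subunit of ATP synthase, changed by 1.03 (SE 0.235, adjusted p = 0.0398), and Cox4i1, the common form of COX4, by 1.19 (SE 0.285, adjusted p = 0.0457). The gene model of Cox4i1 overlaps Gm20388 on the same strand. The count changed with single libraries: none was left without PBS_Vehicle replicate 2 or 3, PBS_NVP-BHG712 replicate 2, Bleo_Vehicle replicate 2 or any 1 of the 3 Bleo_NVP-BHG712 libraries, 1 was left without Bleo_Vehicle replicate 1, 2 without PBS_Vehicle replicate 1 or PBS_NVP-BHG712 replicate 3, 3 without PBS_NVP-BHG712 replicate 1, and 7 calls (5 higher, 2 lower) were made without Bleo_Vehicle replicate 3. Only 1 was left when barcodes over 5% mitochondrial UMIs were removed.

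The 5 nuclear-encoded members with the most UMIs held 27.09% of the nuclear-encoded UMIs, and none was called. Ndufs4, a complex I subunit whose loss causes Leigh-like disease, was at 116, 126 and 120 CPM in PBS_Vehicle and at 74.4, 102 and 119 in Bleo_Vehicle, with log2 change -0.29 (edgeR adjusted p = 0.311). Sdha, the flavoprotein subunit of complex II, was at 76.7, 74.4 and 80.1 CPM against 60.8, 52.1 and 71.1, with log2 change -0.33 (adjusted p = 0.191). The Sdha libraries of the groups did not overlap, although the test was not passed. Ndufs1 (-0.32), the complex I assembly factor Ndufaf2 (-0.33) and the ATP synthase stalk subunit Atp5f1 (-0.08) were not called either.

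Against Bleo_Vehicle, Bleo_NVP-BHG712 had lower levels of all 13 mt-encoded members (edgeR, 13 of 13 called, median log2 change -4.32 beside -0.06 over all genes, 4.02% of all genes called lower). This comparison shares its Bleo_Vehicle libraries with the one above, so the members high in those libraries are read a further time. Bleo_NVP-BHG712 was at 179, 169 and 101 CPM for mt-Co1, a log2 change of -4.40 with SE 0.554 (edgeR adjusted p = 0.00328), and at 114, 93.1 and 76.9 CPM for mt-Cytb, a change of -4.29 (SE 0.573). For mt-Nd4 it was at 92.2, 62.0 and 51.8 CPM, a change of -3.88 (SE 0.521, adjusted p = 0.00388). All these values lay below every Bleo_Vehicle library. The range over the 13 went from -3.76 (mt-Nd3) to -5.15 (mt-Nd6). Without Bleo_NVP-BHG712 replicate 1, 11 were called, as without replicate 3: mt-Nd6 (-5.23 and -4.54) and mt-Atp8 (-4.40 and -3.98) lost the call.

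Of the nuclear-encoded members, 10 of 87 fell in Bleo_NVP-BHG712 against Bleo_Vehicle and none rose (edgeR), beside 4.02% of all genes called lower, and 36 had an unadjusted p under 0.05. Their median log2 change was -0.40. In 43 of the 87 the groups did not overlap, beside 33.7% of all genes. By complex, medians were -0.82 for complex III, -0.52 for complex IV, -0.40 for complex V, -0.32 for complex II, -0.31 for complex I subunits and 0.16 for complex I assembly factors.

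Cox6c, a complex IV subunit, was at 16.4, 16.2 and 18.4 CPM in Bleo_Vehicle and 10.5, 9.67 and 9.07 in Bleo_NVP-BHG712, a log2 change of -0.81 with SE 0.173 (edgeR adjusted p = 0.0214). Sdhb, the iron-sulphur subunit of complex II, was at 31.1, 23.4 and 23.1 CPM against 15.5, 17.0 and 15.3, a change of -0.69 (SE 0.173, adjusted p = 0.0392). Cox8a was at 9.66, 8.06 and 8.12 CPM in Bleo_NVP-BHG712, a change of -1.06 (SE 0.222, adjusted p = 0.0196). In each of these genes all Bleo_Vehicle libraries were above all Bleo_NVP-BHG712 libraries. The other 7 calls were named after their values were seen: in complex V, Atp5k (-1.99, adjusted p = 0.0101), Atp5e (-1.76, adjusted p = 0.00482) and Atp5j2 (-1.38, adjusted p = 0.0131); in complex IV, Cox5b (-1.79, adjusted p = 0.0458) and Cox4i1 (-1.52, adjusted p = 0.016); in complex III, Uqcr11 (-1.74, adjusted p = 0.0196); and in complex I, Ndufb9 (-1.43, adjusted p = 0.0456), whose model overlaps Gm49356. The count depended on single libraries: 1 call was left without Bleo_NVP-BHG712 replicate 3, 2 without its replicate 1 or 2, and 6 without Bleo_Vehicle replicate 2. It was 6 with barcodes over 5% mitochondrial UMIs left out.

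The comparisons without Bleo_Vehicle gave no call. In PBS_NVP-BHG712 against PBS_Vehicle, 0% of all genes passed by edgeR, and none of the 13 mt-encoded or 87 nuclear-encoded members did, at an unadjusted p under 0.05 for 0 of either set, and DESeq2 called none of the members. The medians were 0.15 for mt-encoded and -0.02 for nuclear-encoded members. In Bleo_NVP-BHG712 against PBS_NVP-BHG712, 0% of all genes passed by edgeR, no member did by edgeR or DESeq2, and 0 mt-encoded and 7 nuclear-encoded members had an unadjusted p under 0.05. The medians there were -0.18 and -0.13. These counts do not show that the groups were alike, and in the second comparison group and run cannot be told apart.

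The difference between the bleomycin effect with the inhibitor and that with vehicle was tested as an interaction. It was called for 9 of the 13 mt-encoded members, all lower (edgeR, 0.228% of all genes called lower), and for none of the 87 nuclear-encoded members, of which 23 had an unadjusted p under 0.05 and DESeq2 called 6. mt-Co1 was at -4.65 and mt-Cytb at -4.44 on the log2 scale, both with an adjusted p of 0.0458. mt-Nd1 (-4.47, adjusted p = 0.0521), mt-Atp6 (-4.39, adjusted p = 0.0521), mt-Nd6 (-5.61, adjusted p = 0.117) and mt-Atp8 (-4.32, adjusted p = 0.117) were not called. The count of 9 fell to 0 without PBS_Vehicle replicate 2 or 3, PBS_NVP-BHG712 replicate 1 or 2, Bleo_Vehicle replicate 2 or any 1 Bleo_NVP-BHG712 library.

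Nuclei were then grouped by markers, with the members and all mt genes left out of the genes used for clustering, which gave 18 named classes. Class names are those of the marker list that ranked first in a cluster, and stand for nuclei like that cell type. Lists with at least 3 raised markers were ranked before the others, and then by mean log2 rise. In the largest fibroblast cluster, with 4606 nuclei, the mast or basophil list had the higher mean (3.51 against 1.15) but ranked lower. In whole-library sums, fewer cells of a type and less RNA per cell cannot be told apart. Sums within a class do not depend on the share of the class, but still do on the mix of clusters pooled in it. The fibroblast class, for example, pooled clusters at 0.188% to 0.953% mt-encoded UMIs. The 10 classes with 20 or more nuclei in every library were tested. In Bleo_Vehicle against PBS_Vehicle, all 112 tests of mt-encoded members in the 10 classes were called higher by edgeR, beside 2.64% of all gene tests, with class medians from 4.24 in aerocyte capillary endothelial nuclei to 5.92 in alveolar macrophage nuclei. A class tested 9 to 13 of the mt-encoded members. The filter on low counts can admit a gene through Bleo_Vehicle alone, so the count of 112 was partly open to that filter. How many tests entered in that way was not counted. Of 244 tests of nuclear-encoded members, 0 were called by edgeR, and 19 had an unadjusted p under 0.05. A class tested 1 to 65 of the 93 nuclear-encoded members, so no class covered the whole set. Class medians of the nuclear-encoded members ran from -0.32 to 0.17, and a median rests on 1 gene where only 1 was tested. DESeq2 was not run in the classes.

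In Bleo_NVP-BHG712 against Bleo_Vehicle, 109 of the 112 mt-encoded tests were called lower, beside 2.99% of all gene tests, with class medians from -5.44 in fibroblast to -3.52 in venous endothelial nuclei. The 3 that were not were mt-Nd3 in aerocyte (edgeR adjusted p = 0.0586) and smooth muscle nuclei (adjusted p = 0.0744) and mt-Nd4l in venous endothelial nuclei (adjusted p = 0.0598). The filter on low counts, which can admit a gene through Bleo_Vehicle alone, applied to these tests too. Of the 244 nuclear-encoded tests, 4 were called, all lower. In fibroblast nuclei, where 5.05% of all genes were called lower, these were Cox4i1 (log2 change -2.07, SE 0.558, adjusted p = 0.0358), the complex III subunit Uqcrb (-1.78, SE 0.481, adjusted p = 0.036) and Cox6c (-1.36, SE 0.389, adjusted p = 0.0453). In type I alveolar nuclei, where 3.17% of all genes were called lower, it was Atp5j2, a subunit of the membrane part of ATP synthase (-1.52, SE 0.419, adjusted p = 0.0491). Comparisons without Bleo_Vehicle gave no member call in any class by edgeR, beside 0% of all gene tests.

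In Bleo_Vehicle every class was high in mt-encoded UMIs a nucleus. Class means ran from 25.6 UMIs a nucleus in fibroblast to 48.0 in ciliated nuclei. In PBS_Vehicle they ran from 1.34 in fibroblast to 4.13 in ciliated nuclei, in PBS_NVP-BHG712 from 1.39 in fibroblast to 5.14 in venous endothelial nuclei, and in Bleo_NVP-BHG712 from 1.10 in fibroblast to 4.33 in venous endothelial nuclei. In Bleo_Vehicle replicate 3, the deepest library, the 10 classes lay between 23.1 and 28.3, a ratio of 1.22, while their total UMIs a nucleus differed by 3.46 times. In replicates 1 and 2 the ratios were 2.27 and 2.35 for mt-encoded UMIs and 2.89 and 2.22 for all UMIs. Nuclear-encoded members followed the depth of the class: over the 10 classes Spearman's rho between their UMIs a nucleus and all UMIs a nucleus was 0.915, 0.976 and 0.952 in the 3 Bleo_Vehicle libraries, where that of mt-encoded members was -0.382, -0.0303 and -0.418. In the other groups the ranges were much the same, 0.879 to 0.976 for nuclear-encoded and -0.552 to 0.127 for mt-encoded members. These are descriptions over classes that share a library.

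**Figure D3:**
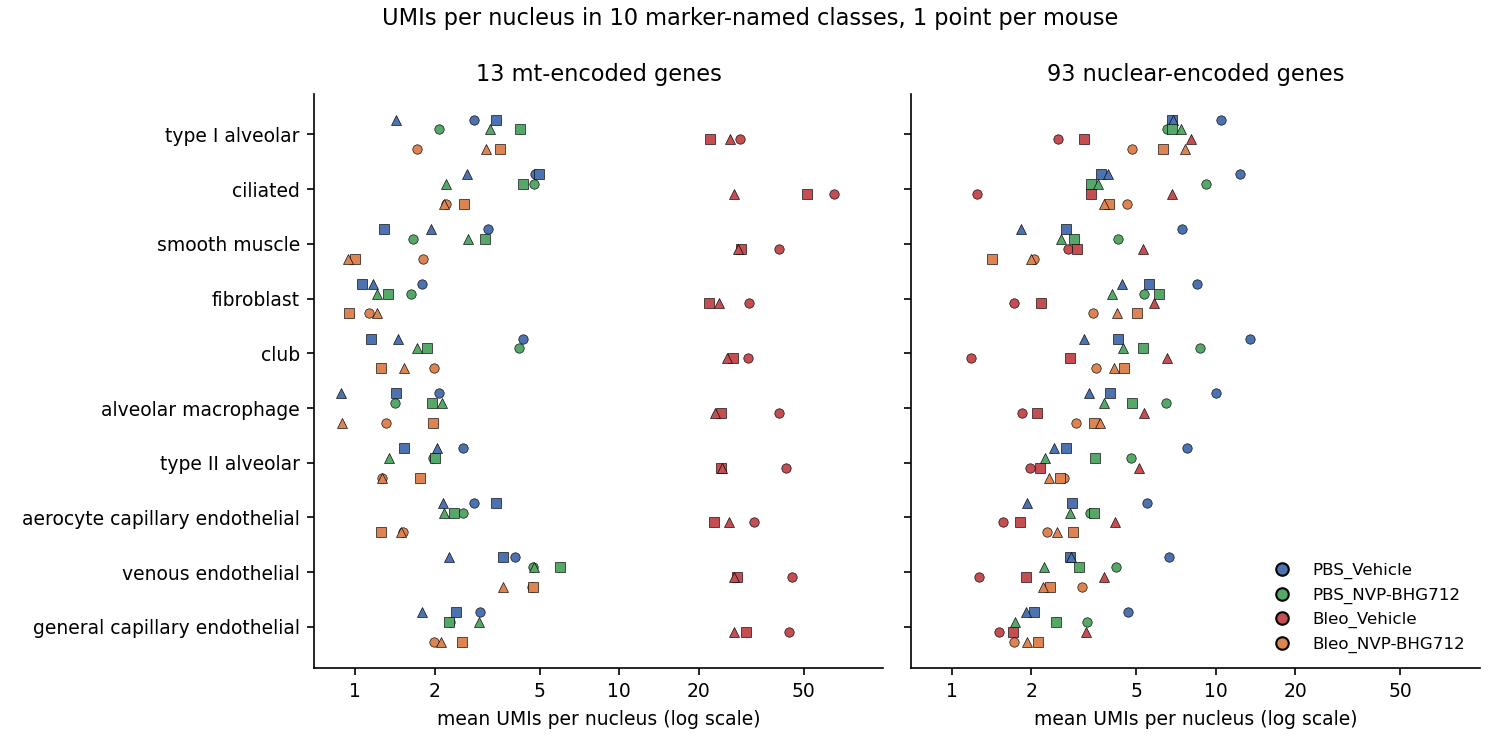
Mean UMIs a nucleus from mt-encoded and from nuclear-encoded members in the 10 tested classes, 1 point per mouse, on a log axis, with colours for groups and shapes for replicates. In Bleo_Vehicle the mt-encoded points lie between 21.9 and 65.3 in every class, and those of the other groups at 5.97 or less.

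Most barcodes shared in the rise. In Bleo_Vehicle 99.7% to 99.9% of barcodes had at least 1 mt-encoded UMI, with medians of 26, 18 and 22, against 47.6% to 64.3% of barcodes with medians of 0 or 1 in the other groups. Over the barcodes of a Bleo_Vehicle library, rho with total UMIs was 0.0881 to 0.186 for mt-encoded and 0.503 to 0.756 for nuclear-encoded members, as a description. In the other groups it was -0.0712 to 0.194 and 0.719 to 0.781. In Bleo_Vehicle replicate 3, barcodes under 1000 UMIs carried 21.1 mt-encoded and 1.69 nuclear-encoded UMIs, and barcodes of 8000 UMIs or more carried 43.6 and 16.6. Between the same depths mt-encoded UMIs a barcode went from 37.0 to 181 in replicate 1 and from 20.6 to 171 in replicate 2, so the rise with depth was weaker in replicate 3 than in those 2 libraries. As a percentage of UMIs, mt-encoded members went from 5.37 to 1.22 in replicate 1, from 2.85 to 1.09 in replicate 2 and from 2.68 to 0.324 in replicate 3. The part of free RNA in these values was not tested.

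Cytosolic ribosomal protein genes, whose mRNA is mostly outside the nucleus, moved with the mt-encoded members. In Bleo_Vehicle against PBS_Vehicle, 59 of 80 tested rose and none fell (edgeR, median log2 change 1.43), beside 2.22% of all genes called higher. In Bleo_NVP-BHG712 against Bleo_Vehicle, 76 of 80 fell (median -1.82), beside 4.02% of all genes called lower. Haemoglobin genes, which mark red blood cells, had 0 of 4 called in both comparisons by edgeR (0 and 4 at an unadjusted p under 0.05), with medians of 1.98 and -5.62. Nuclear-retained long noncoding RNAs, which mark RNA kept in the nucleus, had 0 of 4 called in either comparison by edgeR (2 and 1 at an unadjusted p under 0.05), with medians of 0.27 and -0.34. Neat1 was at 1.33 (edgeR adjusted p = 0.061) and then -1.22 (adjusted p = 0.0562). Their summed share, nonetheless, was 10.2%, 10.0% and 9.05% of UMIs in the Bleo_Vehicle libraries, above the 5.32% to 8.46% of the other 9. The part of RNA from outside nuclei, of red cells and of the batch in the member results was not tested.

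Other genes of mitochondria did not show the mt-encoded pattern. In Bleo_Vehicle against PBS_Vehicle, edgeR called 0 of 6 OXPHOS genes outside the symbol rule (median 0.28), 0 of 35 respiratory chain assembly factors (-0.06), 0 of 22 genes of mitochondrial biogenesis and mtDNA expression (-0.06), 0 of 13 genes of the tricarboxylic acid cycle (-0.02) and 0 of 76 mitochondrial ribosomal proteins (-0.01). At an unadjusted p under 0.05 there were 0, 4, 4, 0 and 2. The transcription factors Nrf1 (0.03) and Yy1 (-0.03) and the mt-mRNA stability factor Lrpprc (-0.17) were not called. In Bleo_NVP-BHG712 against Bleo_Vehicle the same lists had medians of -0.34, -0.02, 0.10, 0.09 and -0.18, with 1 assembly factor higher and 1 biogenesis gene lower. Of 14 glycolysis genes, 3 rose in the first comparison (median 0.86), beside 2.22% of all genes called higher. In the second, 5 fell (median -1.20), beside 4.02% of all genes called lower. Pkm, the pyruvate kinase gene, was at 1.33 (edgeR adjusted p = 0.0474) and then at -1.66 (adjusted p = 0.016), and Hk1 was at -0.93 in the second (adjusted p = 0.0322).

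Nuclear-encoded members differed among themselves by gene length. Those spanning more DNA had more UMIs (rho 0.65 with genomic span, 0.503 with exon length, over 93 genes), as is usual where introns are counted. Over the 87 tested, log2 change in Bleo_Vehicle against PBS_Vehicle went down with span (rho -0.591, beside -0.136 over 14467 genes). The median was 0.67 in the 25 members up to 5 kb, 0.26 in 30 of 5 to 10 kb, 0.23 in 17 of 10 to 20 kb, -0.15 in 11 of 20 to 50 kb and -0.31 in 4 over 50 kb. All genes in the same bins had medians of 0.17, 0.07, 0.06, 0.02 and -0.07. In Bleo_NVP-BHG712 against Bleo_Vehicle the order was turned, from -0.99 in the shortest to 0.42 in the longest bin (rho 0.644, beside 0.262), with -0.46 and 0.13 over all genes. Without Bleo_Vehicle the pattern was also present, with rho -0.329 (all genes -0.206) in PBS_NVP-BHG712 against PBS_Vehicle and 0.595 (all genes 0.399) in Bleo_NVP-BHG712 against PBS_NVP-BHG712. In the latter comparison group and run cannot be told apart. The longest bin held 4 genes. Cox8a, Uqcr11 and Atp5e span under 5 kb, and Cox4i1 just over, whereas Ndufs4 spans 100464 bases and Ndufaf2 155909 bases.

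**Figure D4:**
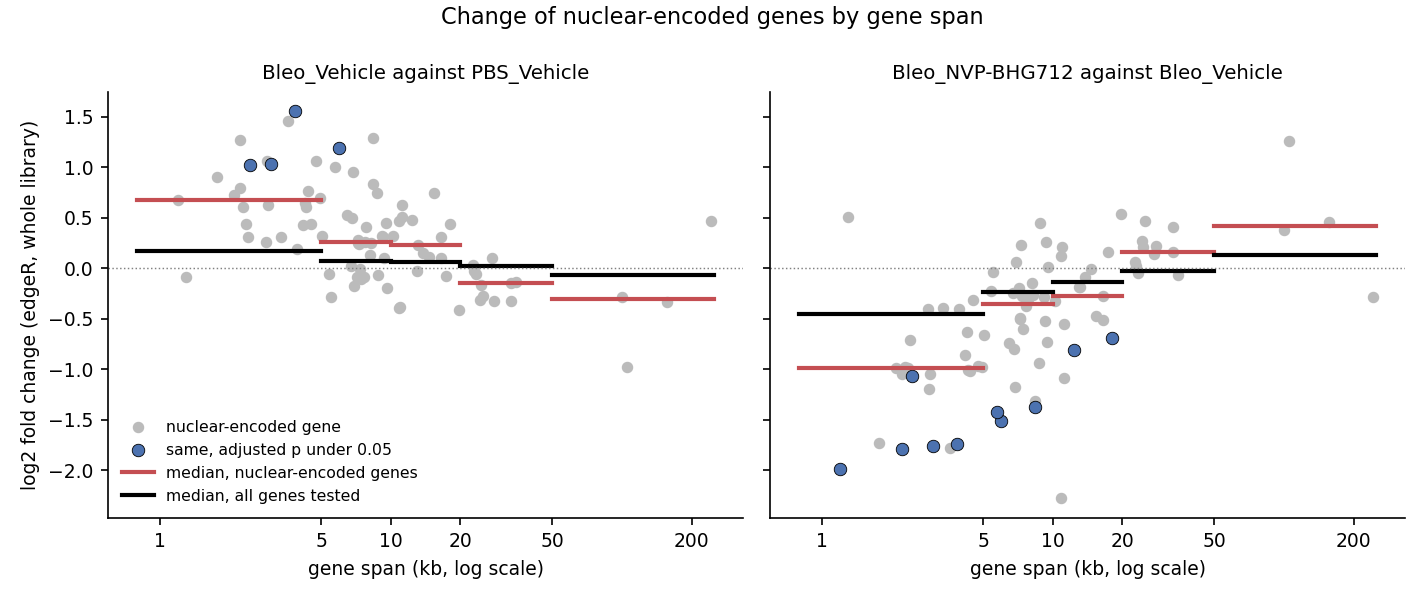
Log2 change of each of the 87 tested nuclear-encoded members against the genomic span of the gene (log axis), in Bleo_Vehicle against PBS_Vehicle and in Bleo_NVP-BHG712 against Bleo_Vehicle, with red lines for the median of the members and black lines for that of all genes tested in each span bin, and blue points for called members. Short members lie higher in the first and lower in the second comparison, with medians of 0.67 and -0.99 up to 5 kb.

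Several complex IV subunits have tissue forms, and these differed by class. Cox4i2, the form of COX4 induced by low oxygen, was mainly found in pericyte nuclei, at 135.7 CPM over all libraries (172 per kilobase of exon), with smooth muscle next at 12.3 CPM (15.6 per kilobase). Pericyte nuclei, 954 in all, held 314 of its 493 UMIs in named classes, or 63.69%. Of all COX4 UMIs, Cox4i2 made up 89.7% in pericyte and 61.0% in smooth muscle nuclei and at most 28.6% in the other 16 classes, where Cox4i1 was the main form. Cox4i1 was at 15.6 CPM in pericyte nuclei. Neither gene was among the pericyte markers, nor among the genes used for clustering, and no class was tested against another.

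By group, Cox4i2 in pericyte nuclei was at 138 CPM in PBS_Vehicle (88 UMIs), 149 in PBS_NVP-BHG712 (98), 135 in Bleo_Vehicle (125) and 33.1 in Bleo_NVP-BHG712 (3 UMIs in 72 nuclei). By library it was at 140, 143 and 0 CPM in PBS_Vehicle, 155, 112 and 0 in PBS_NVP-BHG712, 0, 81.8 and 162 in Bleo_Vehicle, and 0, 51.5 and 0 in Bleo_NVP-BHG712, so the groups overlapped. The libraries at 0 had few pericyte nuclei, and a count of 0 (which allows up to 3 UMIs, by counting error only) left room for up to 327 CPM in PBS_Vehicle replicate 3, 776 in PBS_NVP-BHG712 replicate 3, and 212 and 164 in Bleo_NVP-BHG712 replicates 1 and 3. Bleo_Vehicle replicate 1, with 39 pericyte nuclei and 52685 UMIs, allowed at most 56.9 CPM, below the other libraries of its group and near the 51.5 CPM of Bleo_NVP-BHG712 replicate 2 (3 of 58255 UMIs). In whole libraries Cox4i2 had a log2 change of -2.28 in Bleo_NVP-BHG712 against Bleo_Vehicle and did not pass (edgeR adjusted p = 0.0968).

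Ndufa4l2, the low-oxygen form of the complex IV subunit NDUFA4, was likewise highest in pericyte nuclei, at 16.9 CPM and 39 UMIs, which was 45.35% of its UMIs in named classes, all from 4 libraries. The common form Ndufa4 was at 8.04 to 15.3 CPM in every class. Cox7b2 was found nearly only in fibroblast nuclei, which held 92.39% of its UMIs in named classes (170 UMIs, 4.56 CPM, and 0.972 to 8.37 CPM in the 12 libraries). Type I alveolar nuclei were next by UMIs, with 7 (0.173 CPM), and venous endothelial nuclei next by level, at 0.917 CPM on 3 UMIs. Cox6b2 was also highest in fibroblast nuclei (8.78 CPM, 327 UMIs, 55.71% of its UMIs), where it was 48.7% of COX6B UMIs, against 30.7% of 244 UMIs in alveolar macrophage nuclei and 4.55% of 22 UMIs in B nuclei. Muscle forms were scarce, with 60 UMIs for Cox6a2, 29 for Cox7a1, 25 for Cox8b and 1 for Cox8c in all named classes. Of the 3 genes for the same c-ring protein of ATP synthase, Atp5g2 led in every class, with 47.3% to 66.0% of their UMIs.

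**Figure D5:**
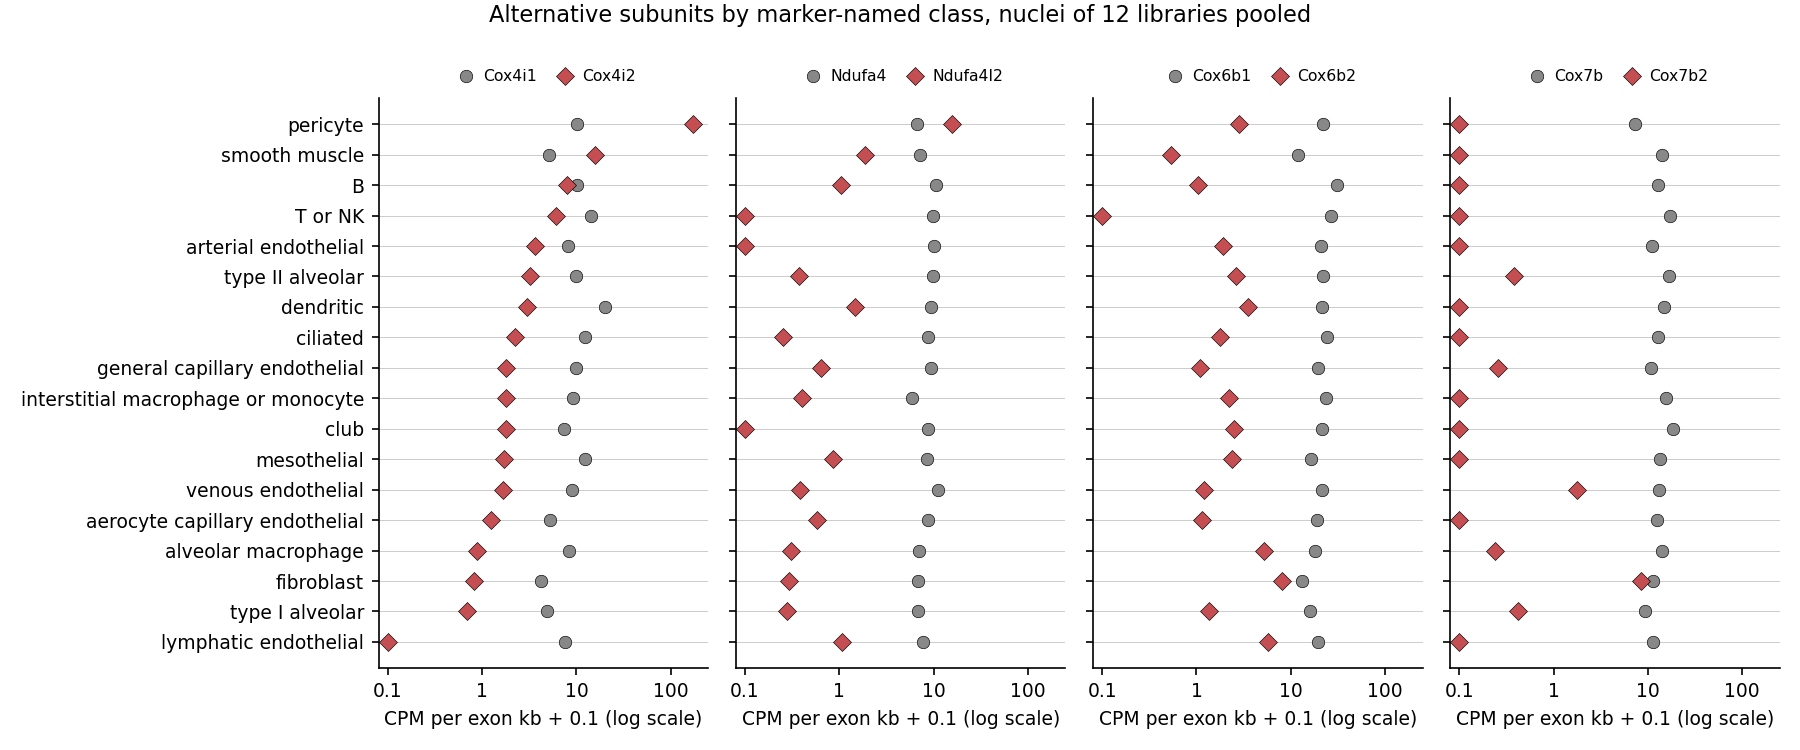
CPM per kilobase of exon, plus 0.1, of the paired isoforms Cox4i1 and Cox4i2, Ndufa4 and Ndufa4l2, Cox6b1 and Cox6b2, and Cox7b and Cox7b2 in the 18 named classes, pooled over the 12 libraries, on a log axis, so that a point at 0.1 means no UMI. Cox4i2 reaches 172 in pericyte nuclei and 15.6 in smooth muscle nuclei, and Cox7b2 reaches 8.42 in fibroblast nuclei.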

How the data were processed

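Nuclei from 12 frozen mouse lungs were sequenced with a droplet 3′ kit (10x Genomics v3.1). Reads were aligned to mm10 and counted by the authors with Cell Ranger (version 7.2.0 in the study's methods, 7.0 in the submitters' processing notes), and the deposited values are raw UMI counts per gene and barcode, not normalized. Here, counts were summed over every barcode of a library and tested with edgeR 4.0.16 in R 4.3.3 (quasi-likelihood, TMM scaling, filter on low counts, 4 group means over 12 libraries, 14481 genes), with DESeq2 1.42.0 as an alternative. Depth ran from 3556084 to 61947690 UMIs a library, and precision is limited by 3 mice a group.

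For classes, nuclei with 200 to 6000 genes were kept apart from those with the highest scrublet doublet scores, at 0.8% per 1000 nuclei of a library (46188 of 49163 kept, 2866 removed as doublets), and clustered on 2000 variable genes and 30 components after Harmony (scanpy 1.11.5, Leiden resolution 1), and named from lists of markers when at least 3 were raised. Intervals were not computed for summed shares, and spreads are SD over mice. The fits were tested on simulated data.

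Members and gene lists were chosen with earlier results of these data known. Besides the 13 mt-encoded members, text names nuclear-encoded members that were called, averaged at least 10 CPM and did not overlap between groups (up to 5 each way, 2 in a class), the 5 with most UMIs and the isoform families, and up to 3 genes with the most UMIs in each other list.

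Alternatives were another tool, scaling, filter, barcode set or clustering, the replicate number as a block and leaving out each library. Replicate numbers paired PBS_NVP-BHG712 with PBS_Vehicle in the data (correlations of deviations 0.796, 0.459 and 0.57 for numbers 1 to 3), and the block changed no member call there. The labels state no pairing, but in both groups number 1 was in run 1 and number 2 in run 2. Number 3 was in run 2 in PBS_Vehicle and in run 3 in PBS_NVP-BHG712. Proteins were not analysed here.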

Additional observations from a re-analysis of the deposited data

Results flagged for a closer look

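The effect of bleomycin on 9 mt-encoded members differed between mice given NVP-BHG712 and mice given vehicle, by edgeR's interaction term with Benjamini-Hochberg adjustment over 14481 genes. On the log2 scale the differences (with inhibitor minus with vehicle) were -4.27 for mt-Nd2, -4.08 for mt-Nd3, -4.05 for mt-Nd4, -4.50 for mt-Nd4l and -4.49 for mt-Nd5 in complex I, -4.44 for mt-Cytb in complex III, and -4.65 for mt-Co1, -4.63 for mt-Co2 and -4.44 for mt-Co3 in complex IV. All 9 had an adjusted p of 0.0458, close to the threshold. They rest on the 3 Bleo_Vehicle libraries, which share batches 6 and 7 with no other group, so the group and the batch cannot be told apart. The count fell to 0 with no filter on low counts, and without any 1 of 8 libraries named above.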

How the results depend on the processing

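No result reversed under any alternative. The mt-encoded calls in whole libraries stayed at 13 of 13 under every tool, scaling, filter, barcode set and the replicate block, and ranged from 9 to 13 (Bleo_Vehicle against PBS_Vehicle) and 11 to 13 (Bleo_NVP-BHG712 against Bleo_Vehicle) without 1 library. Nuclear-encoded calls depended on the settings. In Bleo_Vehicle against PBS_Vehicle the 4 became 8 with DESeq2 and 2 with no filter. They became 1 in kept nuclei with at most 5% mitochondrial UMIs, and 0 to 7 without 1 library. In Bleo_NVP-BHG712 against Bleo_Vehicle the 10 became 18, 6, 6 and 1 to 13. The interaction's 9 mt-encoded calls became 0 with no filter and 0 to 13 without 1 library, and its nuclear-encoded calls went from 0 to 6 with DESeq2 and 0 to 2 without 1 library. The causes were not tested. With at most 5% mitochondrial UMIs the mt-encoded share fell in every group: to 0.059% from 0.0836% in Bleo_NVP-BHG712, to 1.06% from 1.58% in Bleo_Vehicle, to 0.0592% from 0.0845% in PBS_Vehicle and to 0.0672% from 0.0982% in PBS_NVP-BHG712. In classes, 112 member calls became 102 to 125 and 113 became 89 to 123 without 1 library.

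The replicate block, in comparisons whose numbers did not pair the samples (correlations of -0.134 to 0.341), gave 13 mt-encoded calls in each comparison with Bleo_Vehicle, 10 (against PBS_Vehicle) and 21 (against Bleo_NVP-BHG712) nuclear-encoded calls there, no member call in Bleo_NVP-BHG712 against PBS_NVP-BHG712, 13 mt-encoded and 3 nuclear-encoded calls for the interaction, and 112 and 116 calls over the classes. Every deposited barcode had at least 500 UMIs, so that cut removed none. Neither the batch of Bleo_Vehicle nor the run of Bleo_NVP-BHG712 could be a term in any fit. With 3 mice a group, nuclear-encoded members at a few CPM are read with wide error.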
